A study of Rattus norvegicus and Sus scrofa and Bos taurus with 188 samples.

Results

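Polycomb repressive complex 1 (PRC1) is a chromatin complex that attaches a single ubiquitin to histone H2A. The genes of its catalytic, PCGF, RYBP/YAF2 and CBX subunits were described in pig morulae, the compacting stage before the blastocyst. Members were taken by name from the deposited expression table: RNF2, RING1, RYBP, YAF2, BMI1, PCGF2, PCGF3, PCGF6, CBX2 and CBX7. Of these 10 genes 9 had a row, in 23 of the 37571 transcript rows and 9 of the 15877 gene names of the table. BMI1 was not analysed here.

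The series profiles DNA methylation, histone marks and RNA in eggs and early embryos of several mammals, with 188 samples in 90 groups here. The values below come from a single group, RNA of morulae from pig whose titles carry the letters PG, which other pig samples spell out as parthenogenetic activation, that is, development from an egg activated without sperm. The labels name no breed, dose or activating agent for the morulae, and the sources used here do not say how many embryos entered a library. The authors merged the 4 Smart-seq2 libraries of this group into 1 column of FPKM, fragments scaled to transcript length and library size, so no value has a replicate spread, no test between conditions was possible, and the depth is unknown. FPKM is a per-length scale, and levels of different genes are compared on it only as far as the annotated lengths and the division of reads among transcripts are right.

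Every PRC1 has a core of 1 RING ubiquitin ligase, RNF2 (also called RING1B) or RING1, held by 1 PCGF protein. Canonical complexes contain PCGF2 or BMI1 with a CBX protein, whose chromodomain binds the H3K27me3 mark laid down by PRC2, and a PHC protein, which polymerises and compacts chromatin. Variant complexes contain RYBP or its paralogue YAF2 in place of CBX and are built on PCGF1, PCGF3, PCGF5 or PCGF6. They deposit most of the H2A ubiquitin in mouse embryonic stem cells and can be recruited without H3K27me3.

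Markers of the morula and of cumulus and granulosa cells were read first. All 10 markers set for the morula, among them TFAP2C, PARD6B, KLF17 and TEAD4, stood between 5.36 and 194 FPKM. Of all genes, 31.1% reached 5 FPKM. With no other stage read here, these markers cannot tell the morula from a neighbouring stage. Of 9 cumulus and granulosa cell markers with a row, 4 were listed at 0, as were 2745 of all 15877 genes. The 2 that reached 1 FPKM (22.2%, against 50.6% of all genes) were PTGS2 at 1.22 FPKM and CYP19A1 at 1.06 FPKM. The other 3 lay at 0.300 FPKM or below.

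Nearly all RNA of the 2 ligase genes was that of RNF2. RNF2 stood at 98.6 FPKM with its rows summed, place 567 from the top of all genes, and RING1 at 0.582 FPKM, place 8964. The ratio was 170-fold on summed rows and 91.3-fold on the highest row of each. Of the PCGF genes PCGF6 was highest, and both variant adaptors, RYBP and YAF2, were well above the typical gene, while the CBX genes that the rule names were not. A gene was called expressed at a summed level of 1 FPKM or more. By that call 5 of the 9 members were expressed (RNF2, RYBP, PCGF6, YAF2 and PCGF2), against 50.6% of all genes, so the number of members called was near the background. The members ranged from 0.116 to 98.6 FPKM, around a median of 1.07 FPKM that lay next to the 1.06 FPKM of all genes. Because 4 of the 9 lay between 0.582 and 1.07 FPKM, the count moved with the call. It was 4 by the highest row (48.8% of all genes) or at 5 FPKM (31.1% of all genes). It was 8 at 0.5 FPKM (57.9% of all genes) and also on the TPM scale, on which the rows of the table are rescaled to sum to 1000000 (62.5% of genes at 1 TPM or more).

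**Figure D1:**
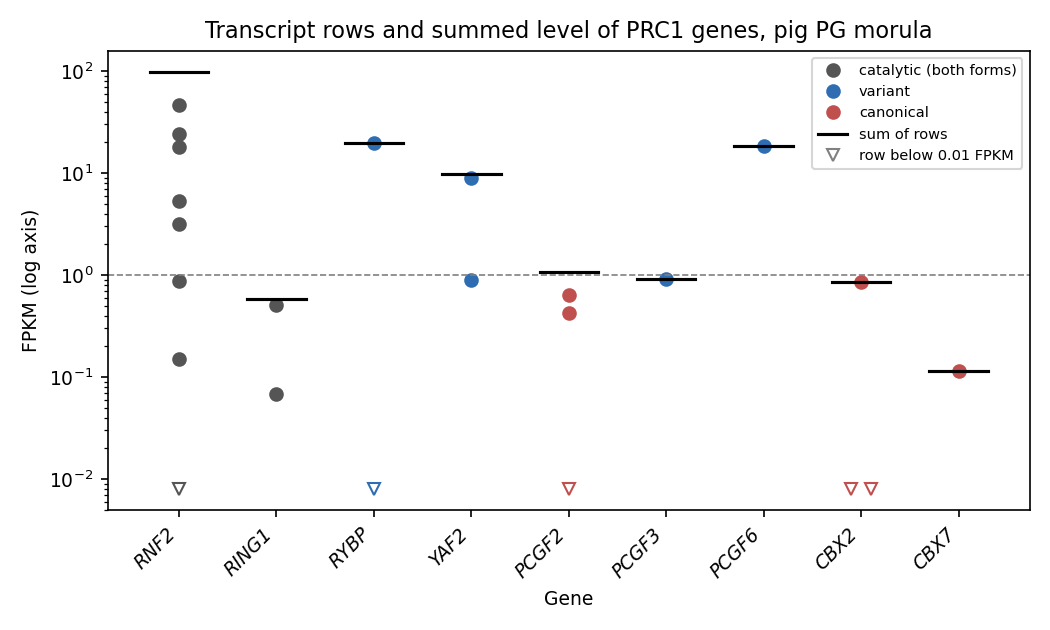
Each point is 1 transcript row of a member gene in FPKM (log axis) and each black bar is the sum of the rows of that gene. Open triangles at the foot are rows below 0.01 FPKM, drawn at a fixed height, and the dashed line marks 1 FPKM. RNF2 spreads over several rows up to 46.8 FPKM, whereas RYBP and CBX2 rest on 1 row each.

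The catalytic gene RNF2 had 8 transcript rows, the most of any member. The highest, ENSSSCT00000051776.1, stood at 46.8 FPKM and held 47.5% of the sum. ENSSSCT00000049209.1 followed at 24.2 FPKM and ENSSSCT00000063272.1 at 18.1 FPKM, and these 3 rows together held 90.3% of the gene. ENSSSCT00000061196.1 stood at 5.35 FPKM and ENSSSCT00000043301.1 at 3.15 FPKM. Below 1 FPKM lay ENSSSCT00000060674.1 at 0.880 FPKM, ENSSSCT00000016959.3 at 0.150 FPKM and ENSSSCT00000042424.1 at 7.42e-23 FPKM, a value of a fitted read assignment rather than of counted reads. By this fitted assignment RNF2 was divided among several annotated transcripts, and the reads themselves were not examined. In this it resembled other genes with as many rows: over the 82 such genes at 1 FPKM or more, the top row held a median of 55.0% of the sum, with quartiles of 44.7% and 69.4%.

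RING1, the other ligase, had 2 rows, both below 1 FPKM. ENSSSCT00000001648.4 stood at 0.513 FPKM and ENSSSCT00000036018.2 at 0.0689 FPKM. Its summed level was above that of 43.5% of all genes.

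Among the PCGF genes, whose product decides which form of PRC1 is assembled, PCGF6 stood apart. Its only row, ENSSSCT00000027723.2, was at 18.3 FPKM, above 84.4% of all genes. PCGF6 is the subunit of a variant complex with the DNA-binding proteins MGA, MAX and E2F6. PCGF3, the subunit of another variant complex, also had a single row, ENSSSCT00000030851.2, at 0.922 FPKM. PCGF2, a canonical subunit also known as MEL18, divided 1.07 FPKM between ENSSSCT00000062344.1 at 0.642 FPKM and ENSSSCT00000042885.1 at 0.428 FPKM, with ENSSSCT00000062383.1 at 1.28e-05 FPKM. PCGF6 was thus 19.8-fold above PCGF3. It was 17.1-fold above PCGF2 on summed rows and 28.5-fold on the highest row. PCGF2 and PCGF3 lay on either side of 1 FPKM, the closest members to that threshold together with CBX2, and their order turned on the measure used: PCGF2 was 1.16-fold higher on summed rows and 0.696-fold, that is lower, on the highest row. PCGF1, PCGF5 and BMI1 were not analysed here, so the share of PCGF6 among all PCGF transcripts cannot be given.

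Both adaptors of variant PRC1 were expressed. RYBP stood at 19.7 FPKM in ENSSSCT00000024414.2, and its other row, ENSSSCT00000064819.1, at 4.73e-07 FPKM. YAF2 came to 9.82 FPKM, with 8.93 FPKM in ENSSSCT00000043238.1 and 0.891 FPKM in ENSSSCT00000039411.1. RYBP was 2.01-fold above its paralogue and 1.08-fold above PCGF6, while RNF2 exceeded RYBP 5.00-fold on summed rows and 2.37-fold on the highest row.

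The CBX proteins bring canonical PRC1 to H3K27me3, and the members of this class lay below the all-gene median of 1.06 FPKM. CBX2 was near it, above 47.5% of all genes, and CBX7 was above 28.9%. CBX2 stood at 0.850 FPKM, all but a trace of it in ENSSSCT00000022995.2, with ENSSSCT00000063288.1 at 4.00e-05 FPKM and ENSSSCT00000049378.1 at 1.62e-13 FPKM. CBX7, the main CBX of mouse embryonic stem cells, had 1 row, ENSSSCT00000000096.3, at 0.116 FPKM, the lowest level of the 9 members. RYBP exceeded CBX2 23.2-fold and CBX7 170-fold. Of the CBX genes outside the rule, CBX8 stood at 1.66 FPKM, 1.96-fold above CBX2 and 14.3-fold above CBX7, and CBX6 at 0.577 FPKM.

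**Figure D2:**
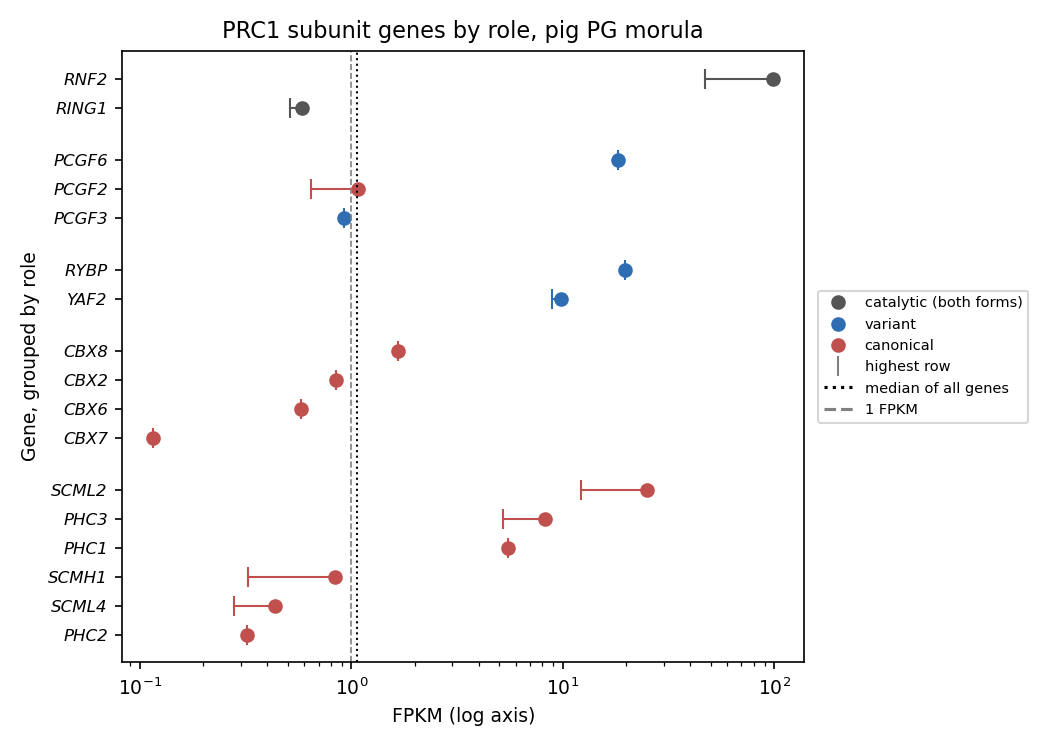
Summed FPKM (points) and FPKM of the highest row (ticks) of 17 PRC1 subunit genes, on a log axis and grouped by role. The dashed line is 1 FPKM and the dotted line the median of all genes at 1.06 FPKM. RNF2 leads at 98.6 FPKM, and SCML2, RYBP and PCGF6 lie together between 18.3 and 24.9 FPKM.

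The PHC and SCM genes of canonical PRC1 were uneven. The Polyhomeotic gene PHC3 stood at 8.22 FPKM over its rows (5.20 FPKM in the highest) and PHC1 at 5.54 FPKM, with PHC2 at 0.320 FPKM. Of the SCM genes, whose fly counterpart binds Polyhomeotic, SCML2 reached 24.9 FPKM (12.2 FPKM in the highest row), the next level after RNF2 on summed rows among these 17 genes. SCMH1 stood at 0.836 FPKM and SCML4 at 0.437 FPKM, and SCML1 was not analysed here. In all, 9 of the 17 PRC1 genes were at 1 FPKM or more (52.9%, against 50.6% of all genes), with a median of 1.07 FPKM, and the count was 14 at 0.5 FPKM, where 57.9% of all genes stood, and 16 at 1 TPM, where 62.5% of all genes stood. In the ligase, PCGF, PHC and SCM classes, at least 1 gene stood far above another, and among the CBX genes CBX8 was 14.3-fold above CBX7.

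Canonical and variant subunits were set against each other, first with the genes that the rule names. The canonical members PCGF2, CBX2 and CBX7 lay between 0.116 and 1.07 FPKM, and the variant members PCGF3, PCGF6 and RYBP between 0.922 and 19.7 FPKM. On summed rows the ranges overlapped, since PCGF3 lay below PCGF2. On the highest row of each gene they did not. There the highest canonical member was CBX2 at 0.850 FPKM and the lowest variant member PCGF3 at 0.922 FPKM. The median of log2(FPKM + 1) was 0.89 for the canonical and 4.27 for the variant members, a canonical minus variant difference of -3.38. With 3 genes on each side, no spread between libraries and members that differ in known function, this difference is a description and not a test. It lay between -2.50 and -4.27 under the alternatives tried. Of these, rescaling to TPM or adding a smaller constant before the logarithm keeps the order of genes and could not change the sign.

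**Figure D3:**
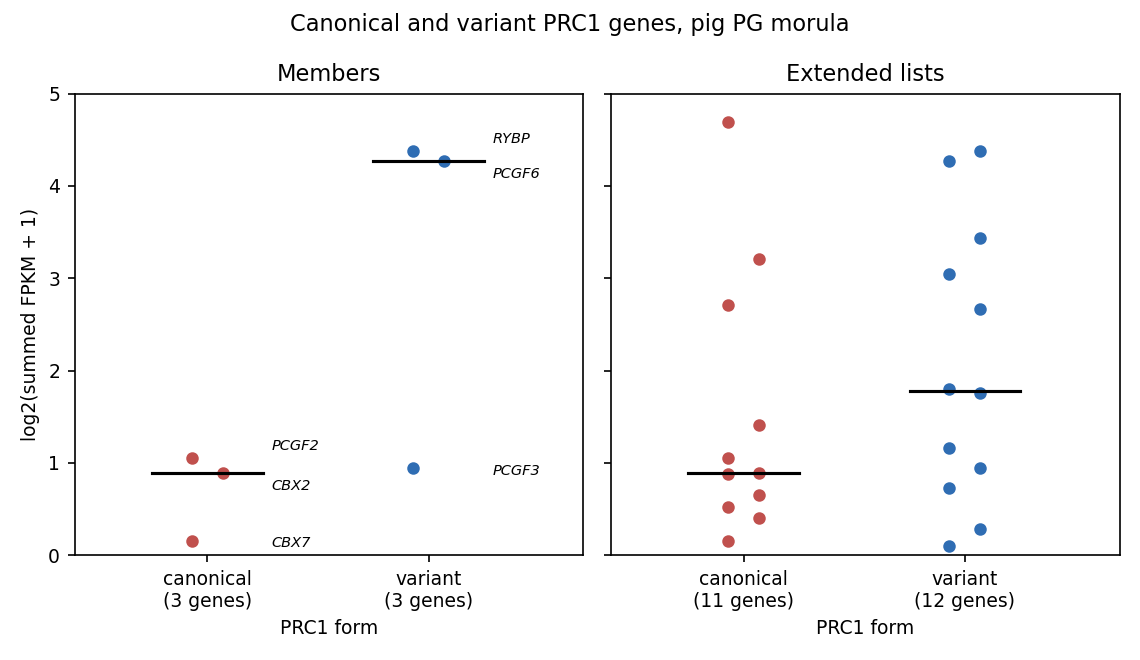
Points are genes on the log2(summed FPKM + 1) scale and black bars are medians, for the members (left, 3 against 3 genes) and for the extended lists (right, 11 canonical against 12 variant genes). The gap of -3.38 between the member medians narrows to -0.89 in the extended lists, where both sides reach above 4 and fall below 1.

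The difference was smaller when the lists were widened to the other subunits of each form. The extended canonical list (CBX, PCGF2, PHC and SCM genes) and the extended variant list (RYBP, YAF2, PCGF genes and the partners particular to variant complexes) held 11 and 12 genes here. Of them 5 (45.5%) and 8 (66.7%) were at 1 FPKM or more, on either side of the 50.6% of all genes. Their medians on the log2(FPKM + 1) scale were 0.89 and 1.78, a difference of -0.89. Without the members that the rule names it was -0.32, so most of the gap between the extended lists came with those members. Neither list is complete, and these differences describe only the genes set against each other here. The highest gene of this canonical list, SCML2 at 24.9 FPKM, exceeded the highest gene of the variant list, RYBP at 19.7 FPKM, on summed rows, and lay below it on the highest row (12.2 against 19.7 FPKM).

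Partners of the variant complexes were read beside their PCGF genes. All 9 partners of the PCGF6 complex with a row were at 1 FPKM or more, against 50.6% of all genes, with a median of 10.4 FPKM. The deacetylase genes HDAC2 and HDAC1 stood at 101 and 29.0 FPKM, WDR5 at 27.6 FPKM and the MYC partner MAX at 19.5 FPKM. HDAC1, HDAC2, WDR5 and MAX also serve other complexes. The other 5 ranged from 10.4 FPKM for TFDP1, a partner of E2F proteins, down to 1.24 FPKM for E2F6. Between them lay MGA, the scaffold of the complex, at 7.28 FPKM, L3MBTL2 at 2.38 FPKM and TFDP2 at 1.73 FPKM. All of these 5 but MGA were named after their values were seen. Of the partners of PCGF3 and PCGF5, the kinase gene CSNK2A2 stood at 9.99 FPKM, AUTS2 at 0.658 FPKM and FBRS at 0.0750 FPKM, and 3 others were not analysed here. Of the PCGF1 complex, 4 of 5 partners were at 1 FPKM or more (80.0%, against 50.6% of all genes): SKP1 at 542 FPKM and USP7 at 42.4 FPKM, both with many roles outside PRC1, KDM2B, which recruits the complex to unmethylated CpG islands, at 5.33 FPKM, and BCOR at 2.49 FPKM. BCORL1 stood at 0.214 FPKM.

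Enzymes that act before and after PRC1 on the ubiquitin of H2A were also measured. PRC1 receives ubiquitin from UBE2D enzymes, and UBE2D3 stood at 336 FPKM and UBE2D1 at 53.2 FPKM. Members of this family are close in sequence and UBE2D2 was not analysed here, so the split between them is uncertain. Of 8 genes that remove ubiquitin from H2A or assist its removal, 7 were at 1 FPKM or more (87.5%, against 50.6% of all genes), with a median of 5.22 FPKM. USP16 led at 48.9 FPKM (22.3 FPKM in its highest row), followed by MYSM1 at 12.6 FPKM, USP21 at 7.71 FPKM and ASXL2 at 5.57 FPKM. ASXL3 was the exception at 0.185 FPKM. BAP1, the catalytic partner of the ASXL proteins, came to 3.77 FPKM and was also named after its value was seen.

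PRC2, whose H3K27me3 mark canonical PRC1 binds, had all 6 core genes at 1 FPKM or more, against 50.6% of all genes. The 6 ranged from 1.83 to 255 FPKM, and the 4 highest are named here. With rows summed, RBBP4 and RBBP7, whose products bind histones, came to 255 and 66.3 FPKM, EED to 138 FPKM and the catalytic gene EZH2 to 33.7 FPKM. RNF2 lay between them: it exceeded EZH2 2.92-fold on summed rows and 2.29-fold on the highest row, and EED exceeded RNF2 1.40-fold and 1.98-fold. Of 6 accessory genes 4 reached 1 FPKM (66.7%, against 50.6% of all genes). These were AEBP2 with 36.9, MTF2 with 25.5, JARID2 with 10.5 and PHF19 with 2.87 FPKM, while PHF1 (0.214 FPKM) and EPOP (0.0370 FPKM) did not. The HP1 gene CBX5, a chromodomain gene outside PRC1, stood at 12.1 FPKM, and CBX1 and CBX3 were not analysed here.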

How the data were processed

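RNA of the 4 pig PG morula libraries was made with Smart-seq2, per the labels' protocols. The deposited values are FPKM per Ensembl transcript, per the file headers, in 1 column that the authors merged from 4 replicates, as its file name says. The sources used here do not give the annotation or whether reads or values were merged. TopHat2 2.1.1, Cufflinks 2.2.1 and the build susScr11 are listed in the submitters' processing notes, with no role. In all 4534 rows lay above 0 and under 1e-06, so whole reads were not recoverable.

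A gene's level was the sum of its rows, as the rule for the members asks, with the highest row as an alternative. Genes were called at 1 FPKM, and lists compared by medians of log2(FPKM + 1) (pandas 2.3.3, numpy 2.4.6). The code was tested on simulated data. The last 474 rows were all 0 and hold no PRC1 gene. An item of the lists is not reported here and entered no list value. The members and lists were chosen with earlier results of these data known. Named genes are all members, the PRC1 subunits listed, and of other lists the 4 highest and up to 3 on the other side of 1 FPKM from the majority.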

Additional observations from a re-analysis of the deposited data

How the results depend on the processing

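The count of 5 expressed members was 4 with the highest row (against 48.8% of all genes) and 4 at 5 FPKM (31.1% of all genes), and it was 8 at 0.5 FPKM (57.9% of all genes) and 8 on the TPM scale, on which all rows sum to 1000000 (62.5% of all genes at 1 TPM). The count of 9 expressed PRC1 genes was 8 with the highest row, 7 at 5 FPKM, 14 at 0.5 FPKM and 16 on the TPM scale, and 9 without the rows at the end of the table. The members' median of 1.07 FPKM was 0.922 FPKM with the highest row and 3.51 on the TPM scale.

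The canonical minus variant difference of the members (-3.38) was -3.55 with the highest row, -4.01 on the TPM scale, -4.27 with a pseudocount of 0.1 and -2.50 with means. That of the extended lists (-0.89) was -1.06, -1.25, -1.41 and -0.54 under the same 4 settings, -0.91 among genes at 0.1 FPKM or more and -0.32 without the members. No paired analysis was possible because the 4 libraries share 1 column, and for the same reason no library could be left out. The depth is unknown, so levels near 1 FPKM have no interval.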

Other observations

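HOX genes are classical targets of Polycomb repression in many tissues. Of 37 HOX genes with a row, 5 stood at 1 FPKM or more (13.5%, against 50.6% of all genes), with a median of 0.133 FPKM. The 5 were HOXD1 at 15.6 FPKM, HOXD8 at 2.64 FPKM, HOXD9 at 2.54 FPKM, HOXA9 at 2.04 FPKM and HOXA10 at 1.03 FPKM. Of the 37 HOX genes 9 were listed at 0, as were 2745 of all 15877 genes. Several genes of meiosis and the germ line are kept silent by the PCGF6 complex in mouse embryonic stem cells. Of 13 meiosis and germ line genes with a row, 11 reached 1 FPKM (84.6%, against 50.6% of all genes). Their median was 2.13 FPKM, against 1.06 FPKM for all genes. Any action of that complex on them was not tested. The synaptonemal complex gene SYCP3 stood at 533 FPKM, STK31 at 15.1 FPKM, HORMAD1 at 12.0 FPKM and SMC1B at 9.59 FPKM, and STAG3 (0.555 FPKM) and MEI1 (0.398 FPKM) lay below. The series also holds RNA of pig eggs and of other pig stages, which was not read here. In the morula column alone, RNA made in the embryo and RNA inherited from the egg cannot be told apart.

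Ensembl identifiers carry a version number that rises when a transcript model is revised. In RNF2 the single row with a version above 1, ENSSSCT00000016959.3, held 0.152% of the sum, and the other 7 rows held the rest. In RYBP and CBX2 the single such row was the highest. Over the 3354 genes at 1 FPKM or more with several rows and exactly 1 such row, that row was the highest in 1895 (56.5%).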
